A study of Mus musculus with 6 samples.

Results

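Mab21l2 is a single-exon gene that lies inside an intron of the larger gene Lrba, on the opposite strand. Its RNA was described here in hematopoietic stem cells of aged and young mice together with its paralog Mab21l1, which lies the same way inside Nbea, with the host genes Lrba and Nbea, and with Mab21l3, a more distant relative without a host. These 5 genes were taken by symbol from a table of 24091 genes, and Mab21l2 had been chosen by its counts in these aged and young libraries, with the others as its relatives and hosts. For that reason the levels of the 5 genes are described with their spread and with no p-value. The sort kept cells without lineage markers or CD48 and with Sca-1, c-Kit and CD150, a gate for long-lived stem cells, and the mice are labelled wt. The aged group was 20 months old and has 3 libraries, aged 1 to aged 3; the young group was 2 months old and has 3, young 4 to young 6. Pools of 4 aged mice and of 30 young mice were used. Whether that means per sample or per group is not stated, so the spread is between pools and may be partly technical. No strain or sex is given in the labels.

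MAB21 proteins share a fold with nucleotidyltransferases, the enzyme class that includes the DNA sensor cGAS. Mab21l2 and Mab21l1 are best known from the embryo, where the first is needed for eye and body wall and the second for lens formation, and no role in blood stem cells is textbook knowledge. Lrba and Nbea encode large BEACH domain proteins that act in vesicle traffic. LRBA keeps the immune checkpoint receptor CTLA-4 from being degraded in T cells, and neurobeachin, the product of Nbea, acts at synapses of neurons.

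Libraries held 16452829 to 21918658 counts, and 13413 genes had enough counts to be tested between ages. Kit, which encodes c-Kit, stood between 320 and 1033 CPM (counts relative to library size, scaled between libraries by the TMM method) in all 6 libraries, and Slamf1, which encodes CD150, between 62.3 and 121 CPM. Of 8 genes of the sort and of stem cell identity, 4 rose and 1 fell in aged cells: Procr, Fgd5, Ly6a and Mecom rose, and Cd48, the marker excluded by the gate, fell from 10.8 ± 3.17 to 1.40 ± 1.04 CPM (SD, n = 3 each; edgeR's quasi-likelihood test, adjusted p = 0.0345). Of all genes tested, 5.76% passed an adjusted p of 0.05, 4.26% higher and 1.50% lower in aged cells. Young 4 stood apart: its Pearson's r of log2 CPM with young 5 and young 6 was 0.951 and 0.948, across genes, against 0.989 between those 2, and Actb took 4.06% of its counts against at most 1.36% elsewhere. In aged 2, 20918 genes had a count; elsewhere 16084 to 17057 did.

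The layout of the nested pairs was read from the table and from GENCODE M21, an annotation of the same genome build (mm10). In the table, Mab21l2 covers chromosome 3, 86545581 to 86548283, on the minus strand, and Lrba covers 86224234 to 86782694 on the plus strand. Mab21l1 covers chromosome 3, 55782510 to 55785287, on the plus strand, and Nbea 55625198 to 56183701 on the minus strand. Mab21l3 lies farther along chromosome 3, at 101813076 to 101836223 on the minus strand. In GENCODE, Mab21l2 sits in intron 40 of the 57-exon transcript of Lrba, an intron of 63.2 kb, and Mab21l1 sits in intron 41 of the 58-exon transcript of Nbea, an intron of 62.8 kb. Both paralogs thus occupy a similar late and long intron of paralogous hosts. Neither shares a base with an exon of these full-length host transcripts.

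Shorter annotated transcripts of the hosts do overlap the nested genes. Exons of any GENCODE transcript of Lrba cover 40.6% of the 2703 bases of Mab21l2, and exons of its protein-coding transcripts cover 2.29%. One protein-coding transcript of Lrba with 18 exons starts inside Mab21l2, 67 bases from the start of Mab21l2 and running the other way. For Mab21l1 the share under exons of any Nbea transcript is 35.3%, all of it from a retained-intron transcript. The library kit does not mark strand, so over these bases reads from the host's strand and from the nested gene's strand cannot be told apart. Whether the authors' counting saw the overlap depends on their annotation, which is not given in the sources used here.

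Reads of 51 bases can in principle fall on both paralogs, so the sequences of Mab21l2 and Mab21l1 were compared. Their coding sequences have the same length, 1077 bases without the stop codon, and are 80.6% identical with no gap; of the 209 bases that differ, 82.3% are at the third position of a codon. The longest identical run is 26 bases, and no window of 51 coding bases has fewer than 3 mismatches (median 10). None of the 2653 words of 51 bases in the Mab21l2 transcript occurs in a Mab21l1 transcript. The stretch around that run is shown because it bounds how far reads of one gene could be assigned to the other. It covers coding bases 164 to 283 of each gene, written 5′ to 3′ from GENCODE M21 (mm10), with the 16 bases that differ in capitals; Mab21l2 is at chr3:86547409-86547528 (minus strand) and Mab21l1 at chr3:55783157-55783276 (plus strand).
Mab21l2: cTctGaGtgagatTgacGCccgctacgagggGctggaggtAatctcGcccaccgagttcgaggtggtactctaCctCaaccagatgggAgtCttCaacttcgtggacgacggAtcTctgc
Mab21l1: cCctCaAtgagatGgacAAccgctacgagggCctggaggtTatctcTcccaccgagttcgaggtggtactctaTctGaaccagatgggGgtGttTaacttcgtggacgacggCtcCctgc
The differing letters are spread along the stretch on both sides of the shared run. Outside the members, no other gene's transcripts held any of the 51-base words; 997 words (37.6%) of Mab21l2 occur on the opposite strand of Lrba transcripts and 931 (38.1%) of Mab21l1 on that of Nbea transcripts.

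Mab21l2 was nearly absent from young stem cells and well measured in aged ones. It had 711, 826 and 1170 counts in aged 1, aged 2 and aged 3, and 0, 2 and 3 counts in young 4, young 5 and young 6. The levels were 34.1, 42.6 and 54.3 CPM in aged libraries and 0, 0.0996 and 0.132 CPM in young libraries. A count of 0 in young 4 allows up to 0.239 CPM, at 3 counts. The groups were far apart: the lowest aged library was 259 times the highest young library. The mean was 43.7 ± 10.2 CPM in aged against 0.0771 ± 0.0686 CPM in young libraries (SD, n = 3 each). In summed counts scaled for depth, 2707 against 5, aged libraries were 486 times young ones (95% exact interval 208 to 1498). That interval covers counting error only and leaves out the spread between libraries. It also takes each read as a separate molecule, which reads copied by PCR are not. The fitted log2 fold change was 8.84 ± 0.48 (SE) and depends on the prior count that the fit adds to near-empty libraries. Fewer cells with the RNA and less RNA per cell cannot be told apart in bulk samples.

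**Figure D1:**
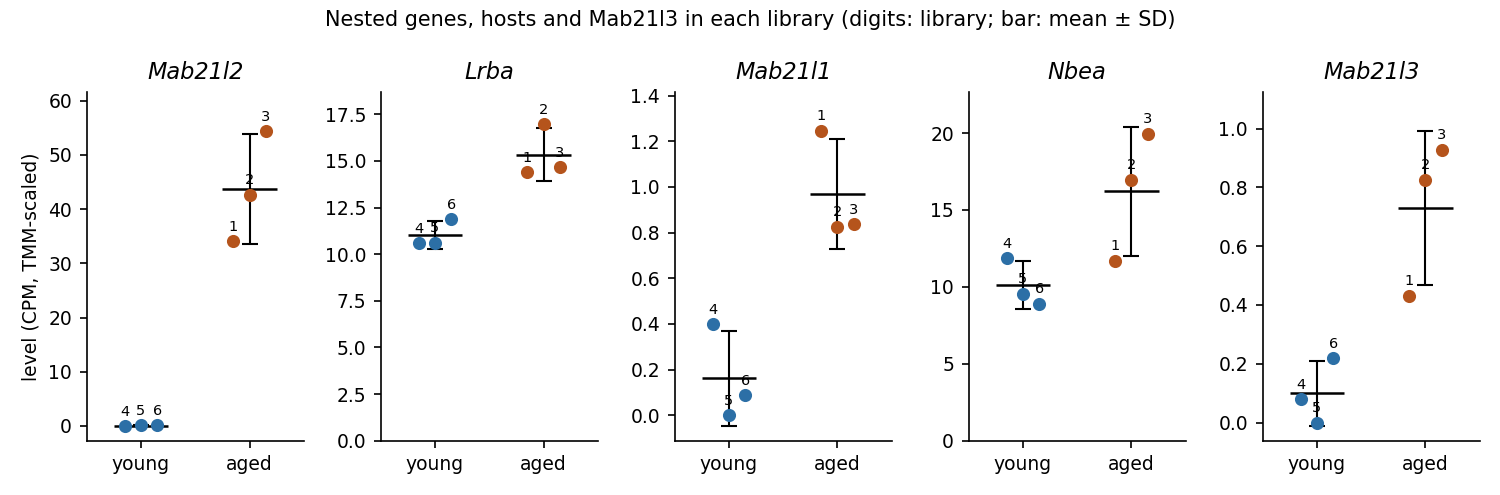
Level in CPM of Mab21l2, Lrba, Mab21l1, Nbea and Mab21l3 in each library (points, digits give the library; bars, mean ± SD of 3 libraries; each panel has its own axis). Aged Mab21l2 runs from 34.1 to 54.3 CPM and young Mab21l2 from 0 to 0.132 CPM, while the hosts stay between 8.90 and 20.0 CPM in both groups.

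Lrba, the host of Mab21l2, differed far less. It had 300, 329 and 316 counts in aged 1 to aged 3 and 133, 213 and 271 counts in young 4 to young 6. Its levels were 14.4, 17.0 and 14.7 CPM in aged against 10.6, 10.6 and 11.9 CPM in young libraries. The groups did not overlap, but the lowest aged library was only 1.21 times the highest young one. The mean was 15.3 ± 1.42 CPM in aged against 11.02 ± 0.743 CPM in young libraries, a fitted log2 fold change of 0.48 ± 0.19 (SE), or 1.39-fold. Lrba thus had fewer counts than Mab21l2 in every aged library, although its length in the table is 12.598 kb against 2.702 kb.

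Per kb of the table's length, the order of the pair turned over with age. Mab21l2 stood at 16.2 CPM per kb in aged libraries, 13.3 times the 1.22 CPM per kb of Lrba. In young libraries it stood at 0.0285 CPM per kb, 0.0326 of the 0.875 CPM per kb of Lrba. Counted against its host in the same library, Mab21l2 had 2370, 2511 and 3703 counts per 1000 Lrba counts in aged 1 to aged 3, and 0, 9.39 and 11.1 in young 4 to young 6. Among the 13413 genes tested, Mab21l2 was at percentile 66.5 of level per kb in aged and at percentile 0.343 in young cells, while Lrba was at percentiles 17.1 and 16.2. The strand that these reads came from was not tested.

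Mab21l1 was at the edge of detection in both ages. It had 26, 16 and 18 counts in aged 1 to aged 3 and 5, 0 and 2 counts in young 4 to young 6. The levels were 1.25, 0.826 and 0.836 CPM in aged against 0.398, 0 and 0.0877 CPM in young libraries. The groups did not overlap; the nearest libraries were aged 2 and young 4, which differed 2.08-fold. In summed counts scaled for depth, aged libraries were 7.70 times young ones (95% exact interval 3.51 to 20.0, counting error only). The fitted log2 fold change was 2.79 ± 0.85 (SE) and 4.20 without young 4, which held 5 of the 7 young counts. Per kb, Mab21l2 was 46.3 times Mab21l1 in aged cells.

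Nbea, the host of Mab21l1, was at a level like that of Lrba. It had 244, 329 and 430 counts in aged 1 to aged 3 and 149, 192 and 203 counts in young 4 to young 6. Its levels were 11.7, 17.0 and 20.0 CPM in aged against 11.8, 9.57 and 8.90 CPM in young libraries. Aged 1 and young 4 overlapped on this scale, and the other aged libraries lay above all young ones. The overlap rests on the TMM factor of young 4, 0.765: in CPM of the raw totals, aged 1 had 12.6 and the highest young library, young 5, had 9.97. The mean was 16.2 ± 4.18 CPM in aged against 10.1 ± 1.55 CPM in young libraries, and the fitted log2 fold change was 0.68 ± 0.26 (SE), or 1.61-fold. In aged cells Mab21l1 stood at 0.310 of the level of Nbea per kb, so it never passed its host as Mab21l2 did.

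Mab21l3, which has no host, was about as scarce as Mab21l1. It had 9, 16 and 20 counts in aged 1 to aged 3 and 1, 0 and 5 counts in young 4 to young 6. The levels were 0.432, 0.826 and 0.928 CPM in aged against 0.0795, 0 and 0.219 CPM in young libraries, and the groups did not overlap. In summed counts scaled for depth, aged libraries were 6.73 times young ones (95% exact interval 2.86 to 19.3, counting error only). Mab21l3 did not pass the filter on low counts, while the other 4 members did; Mab21l2 and Mab21l1 passed it only through their aged libraries. All 3 Mab21l genes and Lrba had every aged library above every young one, a separation in this direction that 19.0% of all genes tested also showed (36.6% in either direction). In mean level per kb, Mab21l2 led the aged order, Lrba and Nbea followed at 1.22 and 1.13 CPM per kb and did not differ beyond their spread, and Mab21l1 and Mab21l3 came last at 0.349 and 0.205 CPM per kb.

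Few genes share the pattern of Mab21l2. Of 8944 genes with 3 counts or fewer in every young library, 7 reached 1 CPM in every aged library, and Mab21l2 was the one that reached 10 CPM. The next, Ntf3, which encodes the neurotrophin NT-3, had 82, 83 and 121 counts in aged 1 to aged 3 and 0 in each young library; its lowest aged level was 3.93 CPM. The next after it, Kcnb2, a potassium channel gene, had 26, 52 and 176 counts in aged and 0, 1 and 0 counts in young libraries. In the opposite direction, of 6852 genes with 3 counts or fewer in every aged library, 1 reached 1 CPM in every young library and none reached 10 CPM. The 2 directions are not on equal terms, since 20918 genes had a count in aged 2 against 16084 to 17057 in the other libraries. The part of aged 2 in this difference was not tested. These counts describe levels and come from no test.

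**Figure D2:**
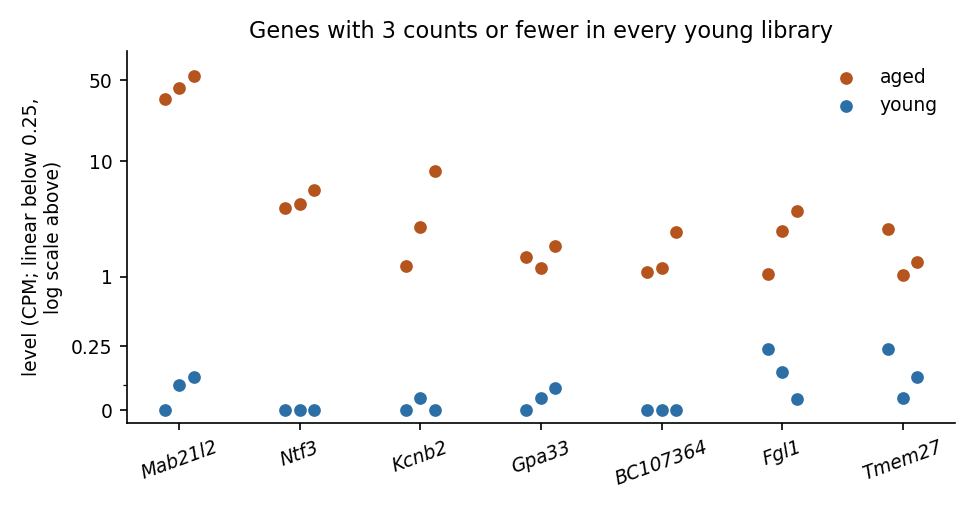
Level in CPM (linear below 0.25, log scale above) of the 7 genes that had 3 counts or fewer in every young library and at least 1 CPM in every aged library; points are libraries, aged in orange and young in blue. Mab21l2 lies at 34.1 CPM or more in aged libraries, and the next gene, Ntf3, has its lowest aged library at 3.93 CPM.

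The genes whose log2 CPM followed Mab21l2 most closely over the 6 libraries, among those with at least 5 CPM in the higher group, were Pgr, Cldn12, Tmem176a, Golga1 and Bbs2 (Pearson's r 0.997 to 0.999). Over 6 libraries in 2 groups, r mostly reflects the gap between the groups and is given as a description. Picking genes by r with Mab21l2 therefore favours genes that differ with age. The folds, p-values and calls given for them here describe these genes and are no separate support. Pgr, the progesterone receptor gene, had 17.8, 16.0 and 20.1 CPM in aged against 1.59, 2.04 and 2.24 CPM in young libraries, and rose 9.09-fold (edgeR's quasi-likelihood test, adjusted p = 0.00315, called in every alternative run). Cldn12, a claudin gene, rose 1.85-fold to 50.4 ± 1.54 CPM, and Tmem176a, which encodes a membrane protein of immune cells, rose 2.14-fold to 305 ± 19.2 CPM. With 1 library left out, Cldn12 was called only without young 4, and Tmem176a only without aged 1 or without young 4. For the host, the most alike were Kcnab1, Zfp799 and Arsg (r 0.990 each), none of which passed the test (adjusted p from 0.0858 to 0.123).

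Genes around Lrba moved little. Of 24 other genes within 1000 kb of either end of Lrba, 13 were tested. Of these, 0 passed edgeR's quasi-likelihood test, beside 5.76% of all genes tested, and 0 of 13 cannot be told from that share. With p under 0.05 before adjustment, 1 was higher and 0 lower. DESeq2 called 1 higher and limma-voom 0. Their median log2 fold change was 0.20, beside 0.04 over all genes tested. Rps3a1, a ribosomal protein gene and the nearest tested neighbour on one side, stood at 809 CPM in aged against 831 CPM in young cells on average. Dclk2, a kinase gene whose nearer end, its 3′ end, is 3.456 kb from Lrba on the other side, stood at 7.11 and 7.69 CPM. The smallest p in this stretch belonged to Pear1, a platelet receptor gene named after its values were seen, at 207 CPM in aged against 133 CPM in young cells (adjusted p = 0.0607). It was called with upper-quartile or no scaling, with DESeq2 and without young 4, and its log2 fold change fell from 0.64 to 0.09 when the trend by GC content and length was taken out.

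**Figure D3:**
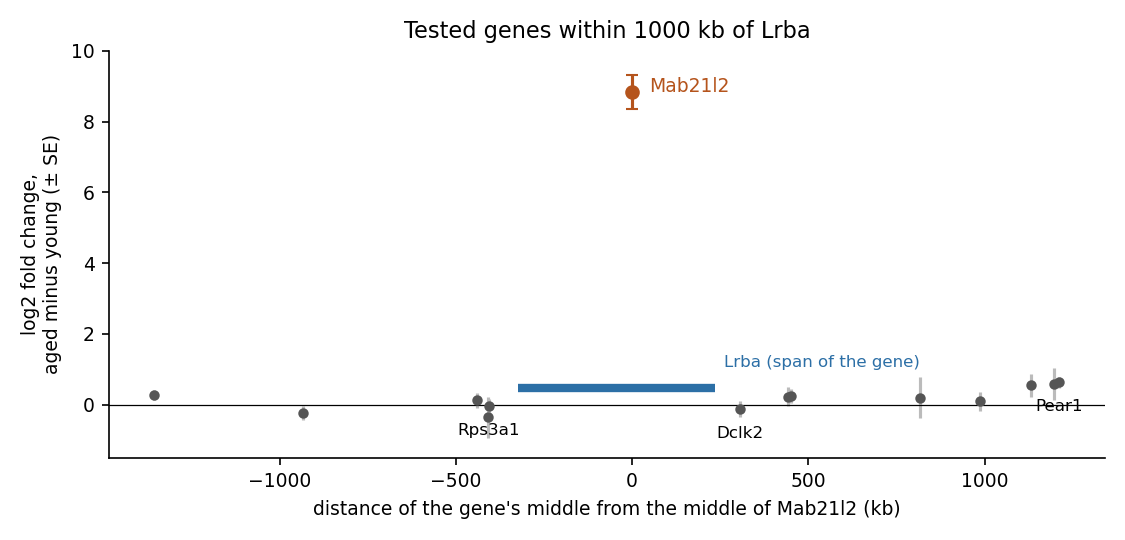
Log2 fold change (aged minus young, points with SE) of the 13 tested genes within 1000 kb of Lrba, of Lrba (blue bar over its span) and of Mab21l2 (orange), against distance from the middle of Mab21l2 in kb. Mab21l2 lies at 8.84 and Lrba at 0.48, while the neighbours lie between -0.36 and 0.64.

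Around Nbea, 5 of 13 other genes were tested and 0 passed edgeR's quasi-likelihood test, beside 5.76% of all genes tested. With p under 0.05 before adjustment, 1 was lower and 0 higher. DESeq2 called 1 lower and limma-voom 0. The nearest tested neighbour, Spg20, stood at 64.9 CPM in aged against 48.3 CPM in young cells (adjusted p = 0.343). The gene that DESeq2 called was Exosc8, an RNA exosome subunit gene, at 123 and 290 CPM (edgeR's quasi-likelihood test, adjusted p = 0.0867). Around Mab21l3, 1 of 9 tested genes was called by that test (11.1%, beside 5.76% of all genes tested), and 1 gene cannot be told from that share. Ptgfrn, which encodes a membrane partner of tetraspanins, rose 8.29-fold from 0.243 to 1.92 CPM (edgeR's quasi-likelihood test, adjusted p = 0.0361). It passed the filter on low counts only through aged libraries, so its call is a description. Leaving out aged 2, aged 3, young 5 or young 6 each lost its call, as did taking out the trend by GC content and length. Exosc8 and Ptgfrn were named after their values were seen.

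Genes nested on the opposite strand of a host were called about as often as other genes. By the table's intervals, 68 of 1021 such genes other than the members were called (6.66%, beside 5.76% of all genes tested), 54 higher and 14 lower in aged cells. Some of those hosts are multi-copy genes whose interval in the table spans much of a chromosome, such as Eno1b around Klf4 (102204 kb) and Mir684-1 around Kcnip3 (121913 kb). Klf4, a transcription factor gene, fell 5.74-fold and Kcnip3, which encodes a calcium-binding protein, rose 4.24-fold. When the layout also had to hold in GENCODE M21, 168 pairs remained, and 11 nested genes were called (6.55%), 10 higher and 1 lower. In 3 of the 11 the host was called too, in the same direction.

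Both nested members exceeded their hosts in log2 fold change. Mab21l2 had been chosen by its counts in these libraries, and both nested members passed the filter on low counts only through aged libraries. Their place among other pairs is therefore a description, and the fit of Mab21l1 (2.79 ± 0.85, SE) rests on 7 young counts. The log2 fold change of Mab21l2 exceeded that of Lrba by 8.37, and that of Mab21l1 exceeded that of Nbea by 2.11; among the other 168 pairs the median difference was -0.10 and 5 exceeded 2. The largest of the 168 was 4.59, for Gpr183 in Ubac2. Gpr183, an oxysterol receptor gene, had 49.3, 41.5 and 83.9 CPM in aged against 1.19, 0.698 and 2.06 CPM in young libraries, while Ubac2 did not pass the test (adjusted p = 0.0925). Hoxb6, a homeobox gene inside Hoxb5os, rose 15.03-fold, to 7.35 CPM. Its call was lost without aged 3 or without young 5, and it passed the filter on low counts only through aged libraries. Rps4l inside Tmtc1, a near copy of another gene, was the 1 called nested gene lower in aged cells among the 168 pairs. It fell 3.49-fold to 5.79 CPM (edgeR's quasi-likelihood test, adjusted p = 0.00917). Tmtc1 did not pass (adjusted p = 0.908), and the call of Rps4l was lost without aged 3 or without young 5.

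**Figure D4:**
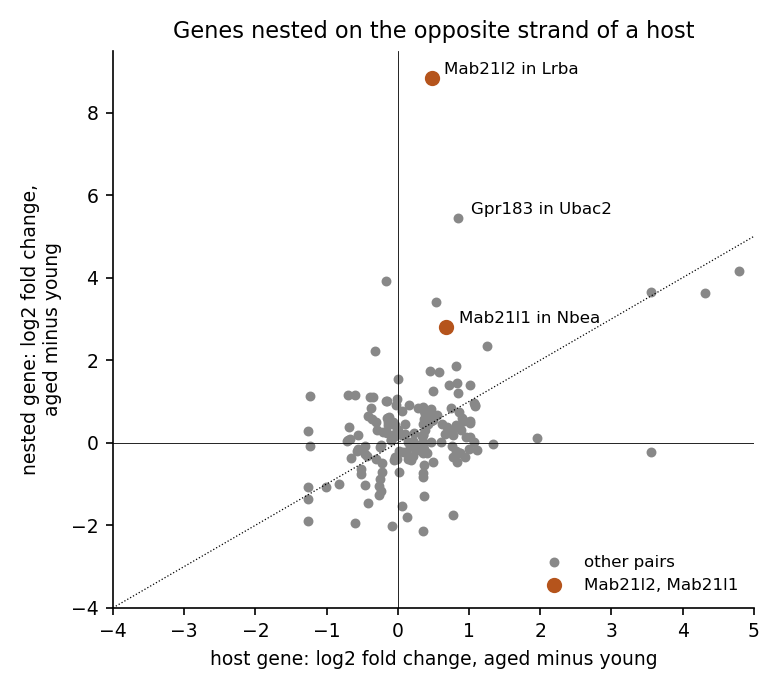
Log2 fold change (aged minus young) of each nested gene against that of its host on the opposite strand, for the 168 pairs whose layout also holds in GENCODE M21 (grey) and for the 2 member pairs (orange); the dotted line marks equal values. Mab21l2 lies 8.37 above its host and Gpr183 4.59 above its host.

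Among proteins with a MAB21 domain, no gene rose with Mab21l2 by the test. Apart from the 3 members, 9 genes of the family were in the table and 7 were tested. Of these, 0 passed edgeR's quasi-likelihood test, beside 5.76% of all genes tested, and 0 of 7 cannot be told from that share. With p under 0.05 before adjustment, 2 were lower and 0 higher. DESeq2 called these 2 lower and limma-voom called 0. The pair, named after their values were seen, are Mb21d1 and Itpripl1. Mb21d1, which encodes the DNA sensor cGAS, had 30.7, 36.2 and 25.02 CPM in aged against 125, 59.2 and 52.3 CPM in young libraries (adjusted p = 0.0719). Young 4 was the highest library; without it the log2 fold change was -0.88, against -1.36 with all 6, and the gene was called. Itpripl1, a relative of the inositol trisphosphate receptor interacting protein gene, had 43.3, 86.8 and 66.7 CPM in aged against 350, 99.7 and 96.0 CPM in young libraries (adjusted p = 0.159), again with young 4 highest. The other 5, which include the mitochondrial fission genes Mief1 and Mief2, had log2 fold changes from 0.28 to 0.82.

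**Figure D5:**
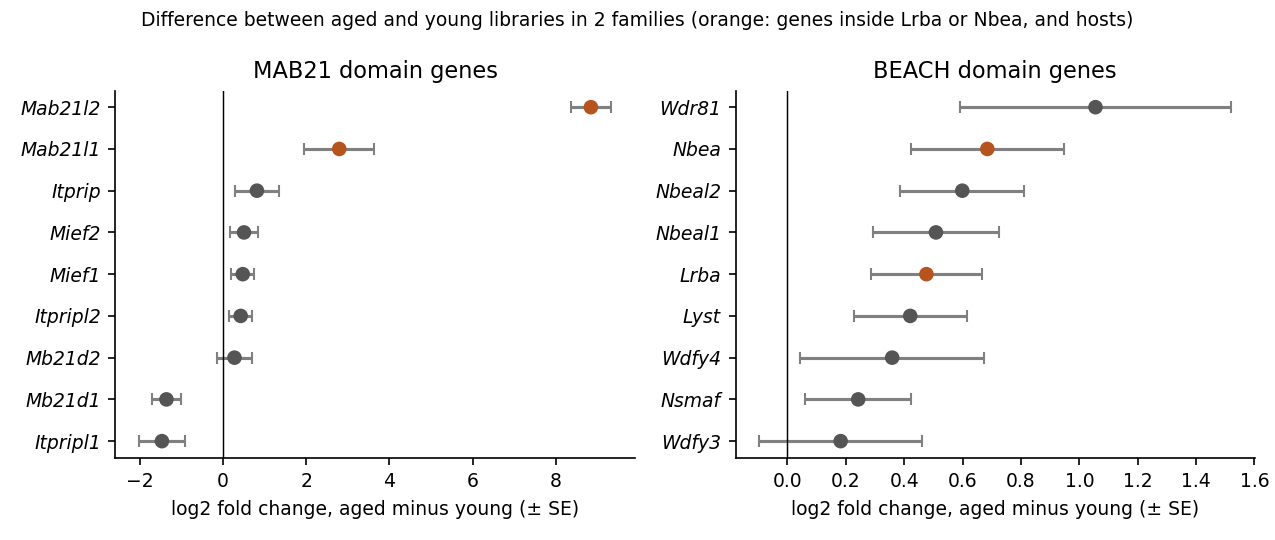
Log2 fold change (aged minus young, points with SE) of the tested genes with a MAB21 domain (left) and a BEACH domain (right), members in orange. Mab21l2 is at 8.84 and the 7 MAB21 genes that are not members lie between -1.47 and 0.82; all 9 BEACH genes lie above 0.

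The BEACH genes leaned toward aged cells without passing the test. Of the 7 tested besides Lrba and Nbea, 0 passed edgeR's quasi-likelihood test, beside 5.76% of all genes tested. DESeq2 and limma-voom called 0. With edgeR's p under 0.05 before adjustment, 1 was higher and 0 lower. All 7 had a positive log2 fold change, with a median of 0.42, beside 52.7% positive and a median of 0.04 over all genes tested. The hosts and several of these genes are long, and among 507 tested genes of at least 10 kb in the table, 61.9% were positive, the median was 0.11 and 24.7% had every aged library above every young one. A fit in which the trend of each library with GC content and length was removed left log2 fold changes of 0.31 for Lrba and 0.48 for Nbea; GC content and length were not separated. The BEACH genes with the highest means, Wdfy3 and Nsmaf, overlapped between the ages. Wdfy3, which acts in selective autophagy, stood at 79.5 ± 18.6 CPM in aged against 70.0 ± 20.4 CPM in young libraries (adjusted p = 0.694). Nsmaf, a gene of sphingomyelinase signalling, stood at 76.8 ± 10.1 against 65.0 ± 9.68 CPM (adjusted p = 0.420). Of the 7, 4 had every aged library above every young one (57.1%, beside 19.0% of all genes tested). These 4 were named after their values were seen: Nbeal2, Nbeal1, Lyst and Wdr81. Nbeal1 stood at 22.7 ± 1.64 CPM in aged against 16.0 ± 3.62 CPM in young libraries (edgeR's quasi-likelihood test, adjusted p = 0.201). Nbeal2, needed for platelet granules, had 49.3, 34.3 and 38.5 CPM in aged against 21.9, 29.3 and 29.3 CPM in young libraries (adjusted p = 0.143); its log2 fold change was 0.60, and 0.02 with the trend by GC content and length removed. Lyst, the gene of Chediak-Higashi syndrome, stood at 16.6 ± 2.14 and 12.4 ± 0.733 CPM (adjusted p = 0.225). Wdr81 stood at 8.45 ± 3.82 and 4.02 ± 1.84 CPM (adjusted p = 0.212).

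Genes that act with LRBA in the recycling of CTLA-4 were next. Of 14 genes, 13 were tested, and 0 passed edgeR's quasi-likelihood test, beside 5.76% of all genes tested. With p under 0.05 before adjustment, 2 were lower and 0 higher. DESeq2 called 1 lower and limma-voom 0. Their median log2 fold change was 0.09. Ctla4 itself was not tested, at 1.01, 0.413 and 0.464 CPM in aged against 0, 0.349 and 0.0438 CPM in young libraries. Rab11a, a GTPase gene of recycling endosomes, stood at 327 ± 37.1 CPM in aged against 313 ± 55.3 CPM in young cells, and Arf1, a GTPase gene of vesicle budding, at 299.98 ± 80.0 and 251 ± 101 CPM; neither passed the test. The gene that DESeq2 called was Cd86, a ligand of CTLA-4, with 4.94, 7.84 and 3.39 CPM in aged against 25.2, 12.9 and 12.3 CPM in young libraries (edgeR's quasi-likelihood test, adjusted p = 0.0672). It was named after its values were seen.

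BMP signalling, the pathway with which MAB21L2 has been linked in embryos, had members that rose. Of 22 genes, 14 were tested, and 3 rose and 0 fell (21.4%, beside 5.76% of all genes tested). The median log2 fold change was 0.53. Without adjustment the list ran both ways: at p under 0.05 in edgeR's quasi-likelihood test, 5 genes were up and 3 down in aged cells. The calls of DESeq2 were 3 up and 2 down, and those of limma-voom were 3 up and 0 down. Bmpr1a, a type I receptor gene, had 18.2, 21.5 and 24.7 CPM in aged against 0.477, 0.448 and 1.01 CPM in young libraries. The groups did not overlap, and Bmpr1a rose 32.0-fold (edgeR's quasi-likelihood test, adjusted p = 0.00297). Bmpr1a passed the filter on low counts only through its aged libraries, so its call and its part in the count of 3 are a description. Bmp4, a ligand gene, had 7.58, 12.3 and 29.6 CPM in aged against 0.716, 1.54 and 1.53 CPM in young libraries and rose 12.7-fold (adjusted p = 0.0235). Aged 3 was the highest aged library for Mab21l2, Bmpr1a and Bmp4, and aged 1 the lowest. That order is not particular to these genes. Among the 8 genes of the sort and of stem cell identity, Fgd5, Procr and Hlf had it too, and Ly6a and Cd48 had the reverse. A link between Mab21l2 and BMP genes was not tested.

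Among targets of the BMP pathway, Id2 passed the test. Id2, which encodes an inhibitor of helix-loop-helix factors, had 28.6, 38.2 and 47.9 CPM in aged against 14.9, 13.5 and 11.9 CPM in young libraries and rose 2.85-fold (adjusted p = 0.0222). Id1, of the same family, had 4.41, 4.18 and 4.596 CPM in aged against 5.57, 18.5 and 33.8 CPM in young libraries (adjusted p = 0.0785). Id3 stood at 0.597 ± 0.191 and 2.48 ± 2.52 CPM, and its groups overlapped (adjusted p = 0.199). Smad1, which encodes a transducer, stood at 37.1 ± 1.51 and 25.6 ± 4.98 CPM (adjusted p = 0.143). Smad6 was lower in aged cells, at 2.40 ± 0.479 and 4.79 ± 0.598 CPM, and its groups did not overlap (adjusted p = 0.0766). Bmpr1a kept its call in every alternative run, and Bmp4 and Id2 lost theirs when aged 2, aged 3, young 5 or young 6 was left out. Without young 4, 6 genes of the list were called, 4 higher and 2 lower. Id1, Id3, Smad1 and Smad6 were named after their values were seen.

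Genes of the eye field and lens, the tissues in which Mab21l1 and Mab21l2 are best known, were mostly silent. Of 16 genes, 3 were tested, and 0 passed edgeR's quasi-likelihood test, beside 5.76% of all genes tested. With p under 0.05 before adjustment, 1 was higher and 0 lower. DESeq2 called 1 higher and limma-voom 0. Pitx3 and Six6 had no count in any library. Maf, a transcription factor gene of lens and of blood cells, had 7.29, 12.3 and 8.496 CPM in aged against 5.17, 2.14 and 1.45 CPM in young libraries (adjusted p = 0.0891); it was called without young 4, with a log2 fold change of 2.37. Mitf stood at 6.35 ± 0.411 and 4.02 ± 1.35 CPM (adjusted p = 0.236).

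Markers of other cells that a sort could hold were summed per library, and their part in the level of Mab21l2 was not tested. No list summed to near 0 in every young library, but a few abundant genes carried several of the sums. Single markers did lie near 0 there. Cd79a, a B cell gene, stood at 0 to 0.132 CPM in young and 0.527 to 0.877 CPM in aged libraries. Cd3e, a T cell gene, stood at 0 to 0.0795 CPM in young and 0 to 0.0516 CPM in aged libraries. The 9 stromal markers summed to between 15.6 and 29.9 CPM in aged against between 7.79 and 81.5 CPM in young libraries, with young 6 highest. The 7 endothelial markers summed to 126 to 221 CPM in aged against 101 to 126 CPM in young libraries, which do not overlap by a narrow gap. Most of each sum came from Tie1, Emcn and Kdr. Emcn was alike in both ages, at 45.5 ± 7.14 CPM in aged against 45.9 ± 12.4 CPM in young libraries. Kdr, a receptor gene of vessel cells, stood at 17.3 ± 4.79 CPM in aged against 6.95 ± 2.62 CPM in young libraries, whose groups did not overlap (adjusted p = 0.0782). Tie1 stood at 101 ± 48.2 against 56.0 ± 19.3 CPM (adjusted p = 0.233). Cdh5, a defining gene of vessel cells, stood at 0.0464 to 0.258 CPM in aged against 0.159 to 1.27 CPM in young libraries. The 7 neural and glial markers summed to 51.4 to 80.7 and 39.5 to 61.0 CPM, mostly from Mbp, with Snap25 at 0.132 CPM or less in every library.

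Summed macrophage markers and summed T and NK cell markers were lower in every aged library than in every young one. The sums of the other blood lineages overlapped. The 7 macrophage markers summed to 34.8 to 36.8 CPM in aged against 39.5 to 69.6 CPM in young libraries. Of these 7, 0 had a positive log2 fold change, beside 52.7% of all genes tested. The 6 B cell markers summed to 59.4 to 87.0 and 73.5 to 133 CPM, nearly all from Cd79b. The 6 T and NK cell markers summed to 0.186 to 0.980 and 2.15 to 3.86 CPM, with Cd8a at 0 in all 6 libraries. Most of the young sums came from Cd4, at 1.99, 3.69 and 3.59 CPM in young 4 to young 6. The 6 granulocyte markers summed to 1.58 to 2.68 and 1.93 to 4.13 CPM, and the 6 erythroid markers to 80.4 to 105 and 51.2 to 130 CPM. In these 8 lists, 5 stromal, 5 endothelial, 3 neural and glial and 7 macrophage markers were tested. Of the B cell, T and NK cell, granulocyte and erythroid markers, 2, 1, 1 and 6 were tested. By edgeR's quasi-likelihood test 2 genes of the 8 lists were called, Cxcl12 and Cd4, both lower in aged cells. Both passed the filter on low counts only through young libraries. Of all genes tested, 5.76% were called, 1.50% lower. DESeq2 called both, 1 macrophage marker lower, and 3 erythroid, 1 endothelial and 1 B cell marker higher. With limma-voom both were called, and 1 B cell marker was higher.

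The stretch upstream of Mab21l2 is shown because a host transcript starts next to it and because its letters differ in kind from those before Lrba and Nbea. It covers the 250 bases before the start, chr3:86548284-86548533 (RefSeq, GRCm38.p6, minus strand), 5′ to 3′, with the one match to a searched motif in capitals.
Mab21l2 upstream: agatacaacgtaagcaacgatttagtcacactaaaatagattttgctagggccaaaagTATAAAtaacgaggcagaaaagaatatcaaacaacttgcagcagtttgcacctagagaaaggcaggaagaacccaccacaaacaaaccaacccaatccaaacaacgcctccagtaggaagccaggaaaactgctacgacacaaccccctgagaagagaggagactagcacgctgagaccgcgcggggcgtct
G and C make up 46.8% of these bases, against 70.8% before Lrba, 74.8% before Nbea, 58.8% before Mab21l3 and a median of 52.4% over 32851 promoters. A search on both strands found TATAAA, the letters of a TATA box, here and before none of the other members in the promoter table. In the same window 12.4% of all promoters hold it. The match lies toward the upstream end of the stretch, away from the start of Mab21l2, and a role as a TATA box was not tested. The GATA motif GATAA, which 22.6% of promoters hold, matched before no member. GGCGCC, which 9.59% hold, also matched before no member. The nuclear receptor element AGGTCA, which 14.02% hold, matched before Lrba alone. No 2 of these motifs overlap in the stretch shown, which holds one match. A match of letters is no binding site.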

How the data were processed

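RNA was measured by RNA-seq in 3 aged and 3 young samples. The SMART-Seq v4 kit, which leaves strand unmarked, and single reads of 51 cycles were used, per the labels' protocols. STAR 2.6.0, HTSeq 0.11.1, Trimmomatic, edgeR and build mm10 are listed, without roles or settings, per the submitters' processing notes. The annotation is not given in the sources used here, nor is the way overlapping reads were counted. As a single table, the authors deposited whole-number counts per gene with coordinates and a length in kb; the counts carry no scaling. Groups came from sample titles.

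All genes were fitted in R 4.3.3 with edgeR 4.0.16 (filterByExpr, then TMM, glmQLFit, glmQLFTest, age as the only term, all 6 libraries), and p-values were adjusted by Benjamini-Hochberg over 13413 genes, called under 0.05; the code was tested on simulated data. CPM values are TMM-scaled, with no pseudocount; levels per kb use the table's length. Likeness used log2 CPM with a prior count of 2. A count of 0 leaves room for 3 counts, or 0.132 to 0.239 CPM by library. Intervals of count ratios are exact binomial ones. Alternatives were scaling by RLE, by upper quartile or not at all, no filter or 5 CPM in 3 libraries, DESeq2 1.42.0, limma-voom (limma 3.58.1) and each library left out; a GC and length correction, joint removal of young 4 and aged 2, and the restriction of nested pairs to GENCODE M21 were added after seeing the data.

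The members and the gene lists were chosen with earlier results of these data known. The lists cover MAB21 and BEACH domain genes, CTLA-4 recycling, BMP signalling, eye field and lens, sort markers and markers of stromal, endothelial, neural, macrophage, B, T and NK, granulocyte and erythroid cells, and genes within 1000 kb of the hosts or Mab21l3. Named were the 5 members, up to 3 called genes of a list or else 2 uncalled ones with the highest mean, the nearest tested neighbours, the genes most like Mab21l2 and Lrba, those closest to Mab21l2 among genes with 3 counts or fewer in every young library, and 3 called nested genes. Hoxb6 and Rps4l were also named after their values were seen, as were the genes marked so in the text and the single markers of other cell types. Sequences came from GENCODE M21 transcripts and a RefSeq promoter table (GRCm38.p6), in which 4 of the 5 members were matched.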

Additional observations from a re-analysis of the deposited data

How the results depend on the processing

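No paired analysis was possible because the aged and young samples share no replicate numbers. The log2 fold change of Mab21l2 ran from 8.46 to 9.35 over 15 alternatives, and that of Nbea from 0.48 to 0.87. That of Lrba stayed positive in all 15, at 0.63 without scaling, 0.34 after the joint removal of young 4 and aged 2 and 0.31 after a correction for GC content and length. That of Mab21l1 ran from 2.13 without young 5 to 4.20 without young 4 and was 4.29 after that joint removal; at 5 CPM in 3 libraries it was not tested. With single libraries left out, all calls ran from 74 to 1029 (772 with all 6), nested genes called from 7 to 77 (68), BMP genes from 1 to 6 (3), and MAB21, eye, Lrba neighbour and Nbea neighbour genes each from 0 to 1 (0). All calls numbered 443 at 5 CPM, 2181 with DESeq2 (1255 higher, 926 lower) and 1386 after the GC and length correction (698 higher, 688 lower, or 50.4% higher against 74.0%); nested genes called numbered 35, 163 and 111 there, and 11 for pairs also nested in GENCODE. DESeq2 called 2 MAB21 genes, 5 BMP genes and 1 gene each of the CTLA-4, eye, Lrba neighbour and Nbea neighbour lists. No filter, the joint removal of young 4 and aged 2 and the GC and length correction each called 1 MAB21, 1 CTLA-4 and 1 Nbea neighbour gene; that removal and no scaling each called 1 eye gene, and no scaling and upper-quartile scaling each called 1 Lrba neighbour. The causes were not tested. Depth limits Mab21l1 and Mab21l3, whose young libraries hold 5 counts or fewer.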
